A study of Mus musculus with 24 samples.

Results

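Mitochondrial fatty acid oxidation and the carnitine shuttle were followed through 10 genes (Cpt1a, Cpt1b, Cpt2, Acadvl, Acadl, Acadm, Hadha, Hadhb, Etfdh and Decr1), taken by symbol from a table of 15582 genes. The table holds liver RNA sequencing of male B6C3F1 mice, 4 weeks old, whose drinking water carried dichloroacetic acid (DCA), a disinfection by-product that blocks pyruvate dehydrogenase kinase, for 6 days. There were 4 groups of 6 libraries, 24 in all: control at 0 g/L, and DCA at 1, 2 and 3.5 g/L. RNA came from frozen pieces of liver of mixed lobes, so each value averages over all cells of the tissue, and in such bulk samples fewer cells of a type and less RNA per cell cannot be told apart. All 10 members were in the table, and all 10 passed the filter for testing, which asked for 0.5 RPKM (reads scaled by gene length and by library depth) in at least 6 libraries. Cpt1b passed it only through the higher doses. Among controls and 1 g/L libraries, only control 5 and 1 g/L library 52 reached 0.5 RPKM in this gene. Its calls at the higher doses, counted below among the 10 members, carry this selection.

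Long-chain fatty acids cannot cross the inner mitochondrial membrane as coenzyme A esters. Carnitine palmitoyltransferase 1, in the outer membrane, turns them into acylcarnitines, and carnitine palmitoyltransferase 2, on the inner membrane, turns them back inside. Acyl-CoA dehydrogenases of different chain-length preference, the trifunctional protein and thiolases then shorten the chain, and the electrons reach the respiratory chain through electron transfer flavoprotein and its dehydrogenase. In liver the pathway feeds ketone body synthesis during fasting, entry through carnitine palmitoyltransferase 1 is blocked by malonyl-CoA, and many of the genes are known targets of the nuclear receptor PPAR-alpha in the mouse.

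Hadha and Hadhb encode the subunits of one complex and lie head to head on chromosome 5, with 85 bases between their annotated ends in GRCm38, so the stretch before one gene is shared with the other. It is shown first below. The windows before Cpt2, Acadm and Cpt1a follow, because Cpt2 and Acadm were among the members with large differences over dose and Cpt1a had the smallest. RefSeq windows (GRCm38.p6) were found for 8 members, all but Cpt1b and Decr1, and those printed are the 250 bases before the RefSeq start of the gene, 5′ to 3′ on the gene's strand. RefSeq starts differ from the GENCODE gene spans given with each member below. Among windows counted but not printed, that of Etfdh lies wholly within its GENCODE gene, and 182 bases of that of Hadha lie within its own. The Cpt1a start lies 967 bases inside the GENCODE gene, so that its window is wholly within it, and the windows of Cpt2 and Hadhb reach 21 and 5 bases into theirs. They are chr5:30155003-30155252 (plus strand) for Hadhb, chr4:107923590-107923839 (minus strand) for Cpt2, chr3:153944644-153944893 (minus strand) for Acadm and chr19:3323051-3323300 (plus strand) for Cpt1a. Capitals mark the letters AGGTCA on either strand, and likewise the letters GGGCGG and the letters CCAAT.
Hadhb: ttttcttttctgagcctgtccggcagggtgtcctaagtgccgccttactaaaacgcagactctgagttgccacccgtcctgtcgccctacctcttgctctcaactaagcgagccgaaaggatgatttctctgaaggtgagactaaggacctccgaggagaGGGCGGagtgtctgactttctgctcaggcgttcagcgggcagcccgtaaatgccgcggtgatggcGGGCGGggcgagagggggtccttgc
Cpt2: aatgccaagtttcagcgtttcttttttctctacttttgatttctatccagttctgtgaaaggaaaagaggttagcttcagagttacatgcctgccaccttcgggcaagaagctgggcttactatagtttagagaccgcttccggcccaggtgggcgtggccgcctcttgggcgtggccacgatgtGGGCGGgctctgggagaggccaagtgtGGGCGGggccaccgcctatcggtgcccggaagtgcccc
Acadm: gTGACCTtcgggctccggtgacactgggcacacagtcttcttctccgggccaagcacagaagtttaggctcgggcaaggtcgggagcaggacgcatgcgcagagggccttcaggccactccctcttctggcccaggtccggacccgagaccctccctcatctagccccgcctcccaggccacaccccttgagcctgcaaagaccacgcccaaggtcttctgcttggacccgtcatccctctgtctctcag
Cpt1a: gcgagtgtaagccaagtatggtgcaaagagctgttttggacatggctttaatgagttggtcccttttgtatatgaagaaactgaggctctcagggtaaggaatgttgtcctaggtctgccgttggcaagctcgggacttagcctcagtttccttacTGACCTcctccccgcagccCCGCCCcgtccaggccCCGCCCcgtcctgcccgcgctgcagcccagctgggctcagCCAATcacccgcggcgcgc
AGGTCA is the core motif read by many nuclear receptors, GGGCGG the core of a GC box and CCAAT the core of a CCAAT box. AGGTCA stood in the windows of Acadm, Acadvl and Cpt1a, 3 of 8, against 14.02% of all 32851 windows in the table. GGGCGG stood in 5 of 8 (Acadl, Cpt1a, Cpt2, Hadha and Hadhb) against 32.74%, and CCAAT in 2 of 8 (Cpt1a and Etfdh) against 33.85%. The windows of Hadha (chr5:30154981-30155230) and Hadhb overlap, and the GGGCGG of Hadha is also one of those of Hadhb, so the same site counts for both. The direct repeat of AGGTCA with 1 base between, which PPAR binds with its partner RXR, was in none of the 8 windows and in 0.03% of all; a looser form, with any base in the fourth place of each copy, was in none and in 0.34%. The extended motif TCAAGGTCA and the E box CACGTG were in none of the 8, and in 0.39% and 6.02% of all. All patterns were read on both strands, and longer ones that spell AGGTCA also count as AGGTCA. These are matches of letters within 250 bases and say nothing of binding.

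At 2 g/L, 8 of the 10 members were higher than in control (limma, Benjamini-Hochberg adjusted over 6540 genes, threshold 0.05), against 41.9% of all genes tested. At 3.5 g/L all 10 were higher, against 38.6% of genes, with Cpt1b tested only because of its levels at the higher doses. At 1 g/L, 0 of 10 were called, against 8.35% of genes higher and 3.03% lower; at an unadjusted p under 0.05 limma had 1 higher (Decr1), against 21.3% of genes, and the exact permutation test 3 (Acadm, Cpt2 and Decr1), against 20.6%. No member was called lower at 1, 2 or 3.5 g/L; 10% and 12.9% of genes were lower at 2 and 3.5 g/L. The members' median log2 fold was 0.09, 0.75 and 1.10 at 1, 2 and 3.5 g/L, beside 0.05, 0.12 and 0.10 over all genes tested. A log2 fold here is the difference of mean log2(RPKM + 1), dose minus control, and the 3 comparisons share the same 6 controls. In 8 members, all but Cpt1a and Cpt1b, every library at 2 g/L and every library at 3.5 g/L lay above every control, which held for 20.2% and 22.0% of all genes; at 1 g/L it held for 0 members and for 3.01% of genes.

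**Figure D1:**
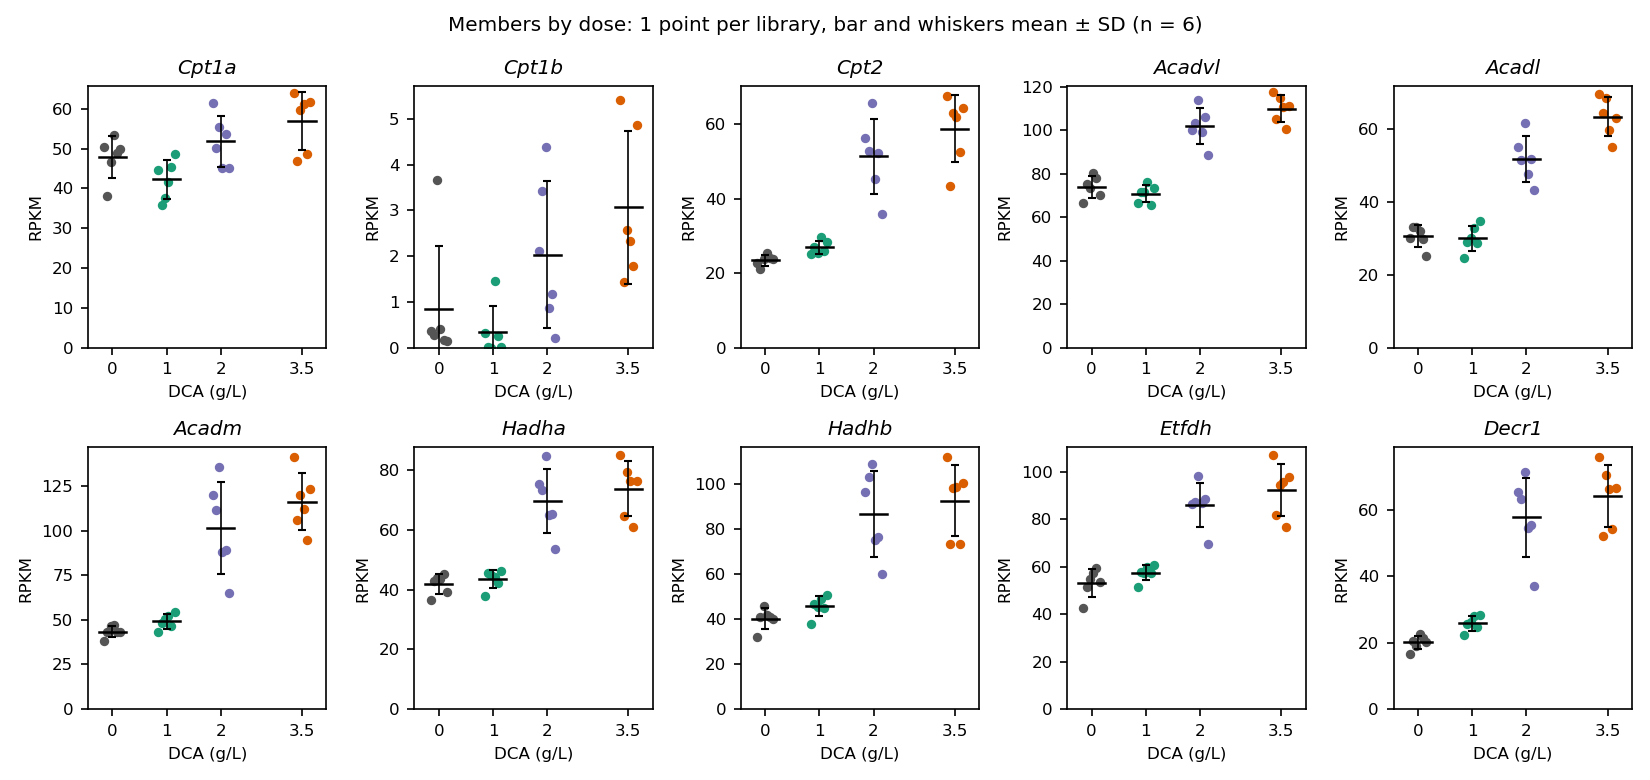
RPKM of the 10 members (vertical axes, each from 0) against DCA in drinking water (g/L, horizontal axes), 1 point per library, with the mean and SD of 6 libraries in black. In 8 panels the points at 2 and 3.5 g/L stand clear of the controls, while in the panels of Cpt1a and Cpt1b they overlap them.

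Carnitine palmitoyltransferases came first in the order of the pathway and differed most among themselves. Cpt1a (chr19:3322334-3385733), the liver form of the outer-membrane enzyme, lay at 38.0 to 53.5 RPKM in controls (median 49.4), 35.8 to 48.7 at 1 g/L (median 43.1), 45.1 to 61.5 at 2 g/L (median 51.9) and 46.8 to 64.0 at 3.5 g/L (median 60.4). The groups overlapped at every dose. Its log2 fold was -0.18 at 1 g/L (SE 0.0973, limma adjusted p = 0.239), 0.11 at 2 g/L (95% interval -0.09 to 0.31, adjusted p = 0.347) and 0.25 at 3.5 g/L (SE 0.0973, adjusted p = 0.0384). The call at 3.5 g/L was not stable: with median-ratio library factors the log2 fold was 0.09 (limma adjusted p = 0.459), with the exact permutation test the adjusted p was 0.0741, and leaving out control 4 or 5, or library 97, 99, 100 or 102 at 3.5 g/L, gave a limma adjusted p of 0.0612 to 0.1155. At 2 g/L its sign turned to -0.06 with those factors and to -0.09 with the title tag, described below, as a term.

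Cpt2 (chr4:107903981-107923610), the inner-membrane enzyme, lay at 20.97 to 25.4 RPKM in controls (median 23.8), 25.2 to 29.6 at 1 g/L (median 26.4), 35.8 to 65.7 at 2 g/L (median 52.5) and 43.4 to 67.5 at 3.5 g/L (median 62.5). Libraries at 1 g/L were at the top of the control range or above it, and those at the higher doses stood apart from both. Its mean was 2.19-fold that of controls at 2 g/L (log2 fold 1.08, SE 0.109, limma adjusted p = 5.94e-08) and 2.51-fold at 3.5 g/L (log2 fold 1.28, SE 0.109, adjusted p = 1.73e-09).

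Cpt1b (chr15:89416405-89425863), the muscle form of the outer-membrane enzyme, was the only member at low level. It lay at 0.145 to 3.67 RPKM in controls (median 0.321), 0.00137 to 1.46 at 1 g/L (median 0.133), 0.201 to 4.39 at 2 g/L (median 1.64) and 1.43 to 5.42 at 3.5 g/L (median 2.45). The highest control, library 5, overlapped both higher doses, and the other 5 controls, at or under 0.410 RPKM, lay below every library at 3.5 g/L. The log2 fold was 0.76 at 2 g/L (SE 0.36, limma adjusted p = 0.0806) and 1.27 at 3.5 g/L (SE 0.36, adjusted p = 0.00492). At this level the size depends on the pseudocount: with 0.1 in place of 1 the log2 folds were 1.53 (limma adjusted p = 0.0752) and 2.41 (limma adjusted p = 0.00661).
Markers of other tissues moved with 2 of these libraries. In control 5 the 7 striated muscle markers summed to 411 RPKM (Acta1 230 and Ckm 93.2 RPKM), and in control 6 Acta1 was at 8.12 and Ckm at 5.62 RPKM. In 1 g/L library 52, where Cpt1b was at 1.46 RPKM, the 5 adipocyte markers summed to 55.4 RPKM (Fabp4 33.6, Cfd 14.6, Adipoq 3.80 and Cidea 3.40 RPKM), against at most 8.68 RPKM in the 23 others. Cpt1b is a gene of brown fat as well as muscle. At 2 and 3.5 g/L no muscle marker other than Des exceeded 0.219 RPKM. Adipocyte marker sums were 3.62 to 8.68 RPKM there, against 2.59 to 6.90 RPKM in controls. The part of these tissues in the Cpt1b values at those doses was not tested. Without controls 5 and 6 and library 52, a choice made after seeing the data, the log2 fold was 1.11 at 2 g/L (limma adjusted p = 0.00792) and 1.62 at 3.5 g/L (limma adjusted p = 0.000333).
Leaving out control 5 alone gave a log2 fold of 1.07 at 2 g/L (limma adjusted p = 0.00785), and leaving out 2 g/L library 78, the lowest of its dose, gave 0.99 (limma adjusted p = 0.0217). In 3 libraries at 1 g/L Cpt1b was below the 0.0122 RPKM that 1 read would roughly give, so its deposited values hold fractions of reads. A readthrough gene on the same strand, Gm44502, shares 2744 of the 3372 exonic bases of Cpt1b, and reads there cannot be assigned to one of them with certainty.

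**Figure D2:**
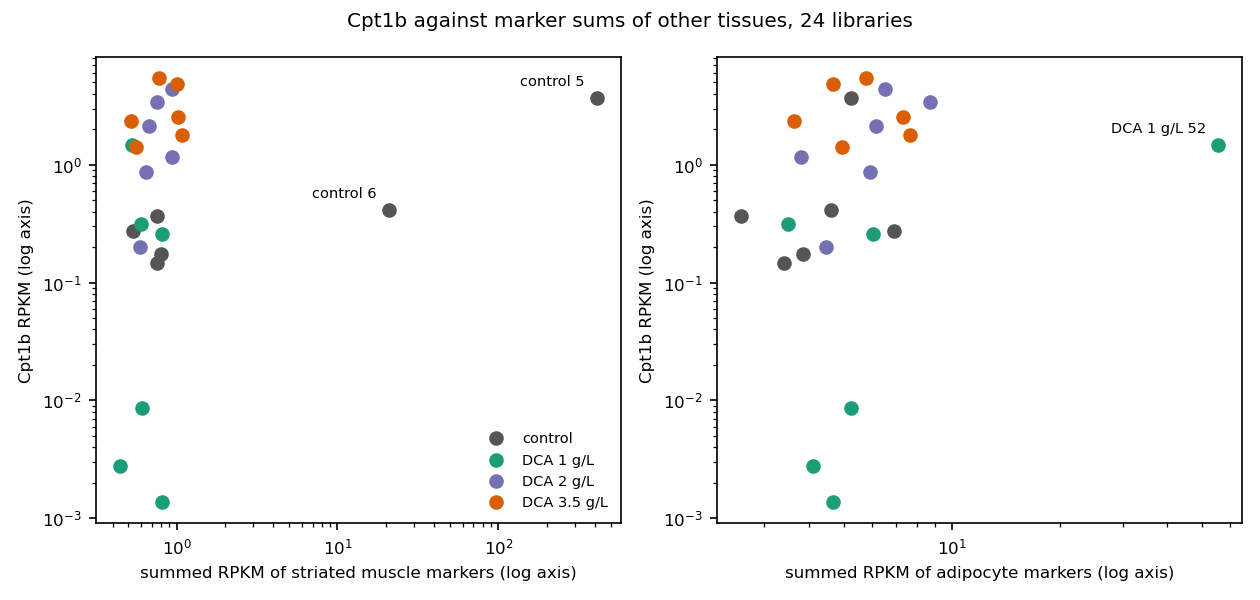
Cpt1b RPKM in the 24 libraries against the summed RPKM of striated muscle markers (left) and of adipocyte markers (right), log axes throughout, coloured by dose. Control 5 stands alone at 411 RPKM of muscle markers and 1 g/L library 52 at 55.4 RPKM of adipocyte markers, while libraries at 2 and 3.5 g/L reach as much Cpt1b with muscle sums of at most 1.08 RPKM.

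Acyl-CoA dehydrogenases carry out the first step of each round, and all 3 rose at 2 and 3.5 g/L. Acadvl (chr11:70010183-70015411), for very long chains, lay at 66.5 to 80.5 RPKM in controls (median 74.3), 65.6 to 76.3 at 1 g/L (median 71.6), 88.7 to 114 at 2 g/L (median 101.7) and 100.5 to 117.7 at 3.5 g/L (median 110.8). Acadl (chr1:66830839-66863277), for long chains, lay at 25.1 to 33.2 RPKM in controls (median 31.1), 24.6 to 34.8 at 1 g/L (median 29.6), 43.3 to 61.8 at 2 g/L (median 51.8) and 55.1 to 69.6 at 3.5 g/L (median 63.8). Acadm (chr3:153922357-153944632), for medium chains, lay at 37.9 to 46.9 RPKM in controls (median 43.1), 43.2 to 54.4 at 1 g/L (median 49.1), 65.2 to 135.7 at 2 g/L (median 100.3) and 94.6 to 141.4 at 3.5 g/L (median 116). Control and 1 g/L libraries overlapped in all 3 genes, and no library at the higher doses reached down to either.
The rise was largest for the medium-chain enzyme and smallest for the very-long-chain one. At 3.5 g/L the log2 fold was 1.39 for Acadm (SE 0.125, limma adjusted p = 3.54e-09), 1.03 for Acadl (SE 0.0867, adjusted p = 1.31e-09) and 0.57 for Acadvl (SE 0.061, adjusted p = 6.1e-08). At 2 g/L the same genes stood at 1.17, 0.74 and 0.45. The spread at 2 g/L was wide for Acadm, with an SD of 25.6 RPKM around a mean of 101.5, where the SD in controls was 3.23 around 43.4. Acadvl shares 1151 exonic bases with Dvl2 on the opposite strand, which averaged at most 0.573 RPKM in any group.

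Hadha (chr5:30118304-30155162) and Hadhb (chr5:30155248-30184593) encode the alpha and beta subunits of the trifunctional protein, which hydrates, oxidises and cleaves long-chain intermediates. Hadha shares 75 exonic bases with Garem2 on the opposite strand. Hadha lay at 36.6 to 45.2 RPKM in controls (median 43.1), 37.9 to 46.1 at 1 g/L (median 44.7), 53.7 to 84.8 at 2 g/L (median 69.4) and 61.0 to 85.2 at 3.5 g/L (median 76.4). Hadhb lay at 31.9 to 45.7 RPKM in controls (median 40.9), 37.8 to 50.8 at 1 g/L (median 46.0), 59.9 to 108.8 at 2 g/L (median 86.3) and 73.1 to 112.1 at 3.5 g/L (median 98.3). Both subunits rose, and Hadhb by more. The log2 fold was 0.71 for Hadha and 1.07 for Hadhb at 2 g/L, and 0.80 (SE 0.0922, limma adjusted p = 1.65e-07) and 1.17 (SE 0.129, limma adjusted p = 7.6e-08) at 3.5 g/L.

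Etfdh (chr3:79603788-79629500), which passes electrons from electron transfer flavoprotein to ubiquinone, lay at 42.6 to 59.3 RPKM in controls (median 54.1), 51.5 to 60.7 at 1 g/L (median 57.7), 69.4 to 98.2 at 2 g/L (median 86.9) and 76.8 to 107 at 3.5 g/L (median 94.99). Decr1 (chr4:15917240-15945507), the dienoyl-CoA reductase needed for many unsaturated fatty acids, lay at 16.7 to 22.5 RPKM in controls (median 20.3), 22.3 to 28.3 at 1 g/L (median 25.9), 37.0 to 71.3 at 2 g/L (median 59.2) and 52.0 to 75.8 at 3.5 g/L (median 66.5). Decr1 libraries at 1 g/L met the controls only at the edge, where the lowest of them fell just under the highest control. On the log2(RPKM + 1) scale Decr1 had the largest folds of the 10 members at 1, 2 and 3.5 g/L: 0.35 at 1 g/L (SE 0.118, limma adjusted p = 0.0551), 1.46 at 2 g/L (SE 0.118, adjusted p = 2.64e-09) and 1.62 at 3.5 g/L (SE 0.118, adjusted p = 1.48e-10). On the scale of mean RPKM these were 1.29-fold, 2.88-fold and 3.20-fold, and there Cpt1b was larger at 3.5 g/L (3.65-fold). Etfdh, which shares 278 exonic bases with 4930579G24Rik on the opposite strand (at most 0.526 RPKM on average in a group), rose by less, with a log2 fold of 0.68 at 2 g/L (limma adjusted p = 1.06e-06) and 0.78 at 3.5 g/L (limma adjusted p = 8.08e-08).

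**Figure D3:**
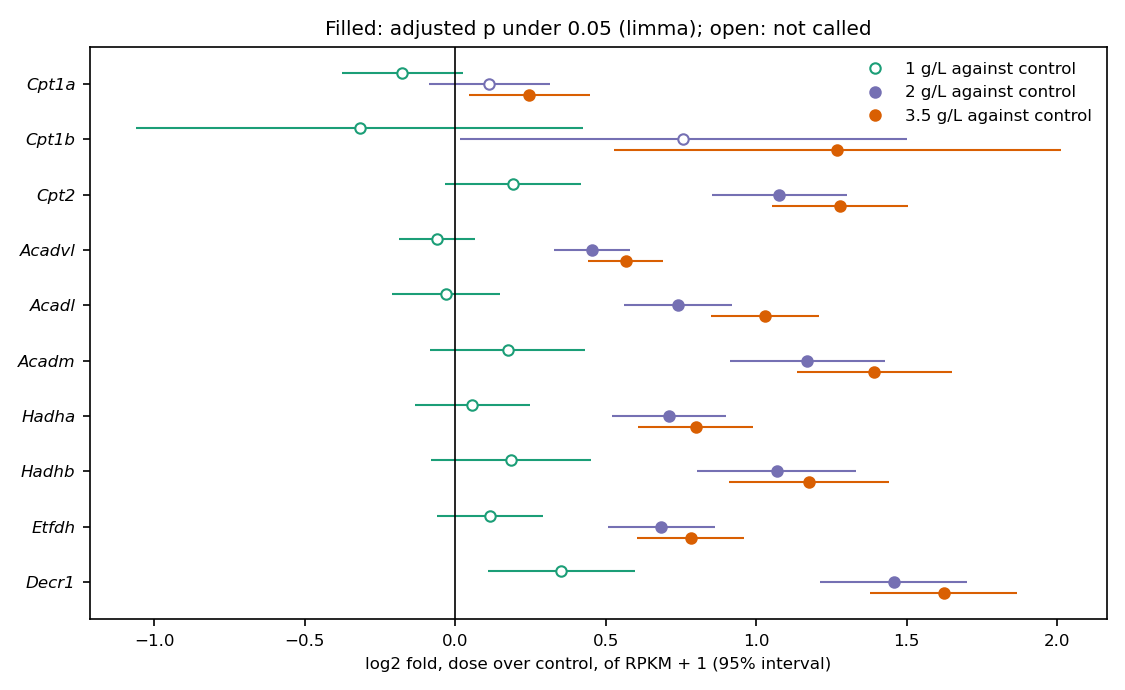
Log2 fold of RPKM + 1, dose over control (horizontal axis), of each member with its 95% limma interval, at 1, 2 and 3.5 g/L from top to bottom within a gene; filled points have an adjusted p under 0.05. Points at 1 g/L lie between -0.32 and 0.35, and at 2 and 3.5 g/L the members run from Cpt1a (0.11 and 0.25) to Decr1 (1.46 and 1.62).

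Most of the change lay between 1 and 2 g/L. In that step all 10 members were higher at 2 g/L (limma adjusted p under 0.05), against 22.7% of all genes tested, and none was lower, against 5.63%, with a median log2 fold of 0.83 beside 0.07 over all genes. Cpt1b is counted here although it passed the filter only through the higher doses. In 8 members every 2 g/L library lay above every 1 g/L library, against 9.11% of genes. The calls of Cpt1a and Cpt1b in this step were not stable. For Cpt1a the log2 fold was 0.29, but 0.19 with median-ratio library factors (limma adjusted p = 0.159) and 0.15 with quantile normalization (limma adjusted p = 0.301). Its call was also lost without a filter on low values (limma adjusted p = 0.0747) and without library 50 or 51 at 1 g/L or 73, 75 or 77 at 2 g/L (limma adjusted p of up to 0.0781). For Cpt1b, with a log2 fold of 1.08, the call was lost without the filter (limma adjusted p = 0.0903) and without library 50, 51 or 54 at 1 g/L or 73, 74 or 75 at 2 g/L (limma adjusted p of up to 0.0843).
With the 1 g/L group limited to its 3 libraries that carry the title tag of 2 g/L, 8 members were called higher, against 6.62% of genes. There the log2 fold was 0.19 for Cpt1a and 0.87 for Cpt1b, with 3 libraries at 1 g/L in place of 6 (limma adjusted p = 0.291 and 0.243).
From 2 to 3.5 g/L only Acadl was called higher (log2 fold 0.29, SE 0.0867, limma adjusted p = 0.0338), against 4.79% of genes higher and 5.54% lower, and that call was lost without library 74, 76 or 78 at 2 g/L or 97, 98, 99 or 102 at 3.5 g/L (limma adjusted p of up to 0.0799). The other 9 members had log2 folds of 0.09 to 0.51 in this step, none past the threshold; for Hadhb, for example, the 95% interval ran from -0.16 to 0.37. The log2 fold at 2 g/L was 45.9% of that at 3.5 g/L in Cpt1a, 59.7% in Cpt1b, 71.9% in Acadl and 80.4% to 90.9% in the other 7. A straight line over dose gave slopes of 0.09 (Cpt1a) to 0.50 (Decr1) log2 units per g/L, all 10 called higher by limma, against 38.0% of genes.

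Within a higher dose the extreme values of the members fell mostly in the same libraries. How many of all genes had their extremes in these libraries was not computed, so a shift of whole libraries cannot be told from one of the members. At 2 g/L library 78 was the lowest of its group for 10 of 10 members and library 75 the highest for 9. At 3.5 g/L library 97 was the highest for 10 members, and the lowest values fell to library 101 for 6 members and to library 98 for 4. The median over members of the log2 difference from the control mean ran from 0.44 to 1.21 over the 2 g/L libraries and from 0.74 to 1.32 over those at 3.5 g/L, against -0.19 to 0.11 over the controls themselves. The 2 higher doses therefore overlapped by this measure, and neither overlapped the controls. Summed markers of hepatocytes also differed between libraries, at 25440 RPKM in 2 g/L library 78 and 16760 in 2 g/L library 75. At 3.5 g/L the sum was 18690 RPKM in library 97, 17330 in library 101 and 20640 in library 98. The part of such differences in the members' values was not tested.

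**Figure D4:**
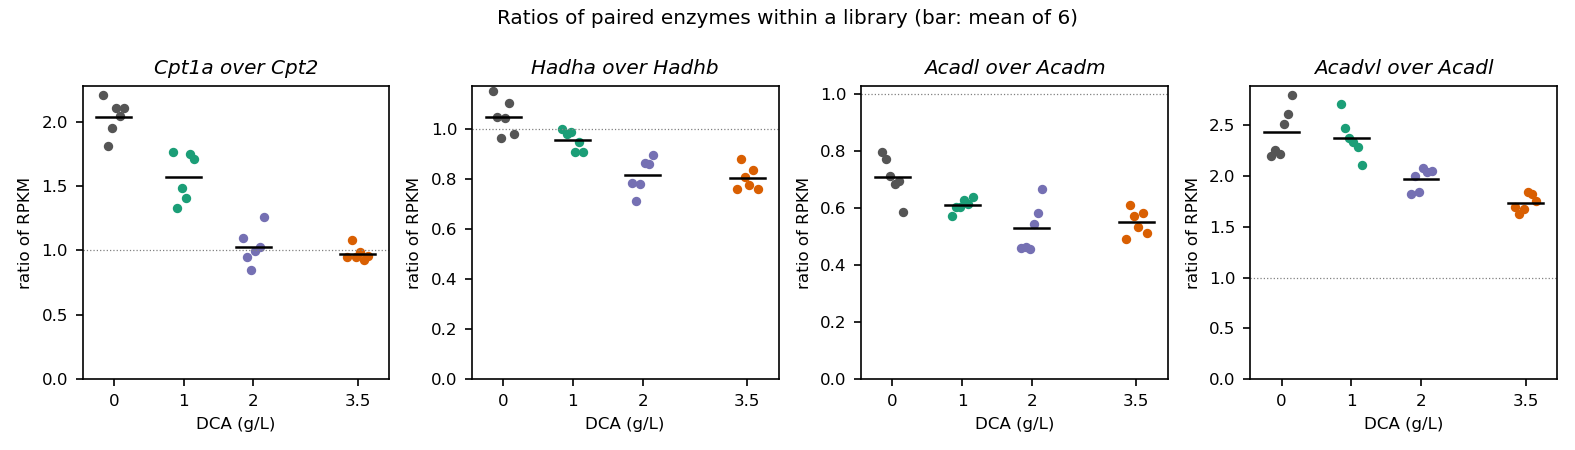
RPKM of one member divided by that of another in the same library (vertical axes, from 0) against DCA dose in g/L, 1 point per library and a bar at the mean of 6; the dotted line marks equal levels. Cpt1a over Cpt2 falls on average to 0.975 at 3.5 g/L, with all dosed points below the controls, which average 2.04.

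Ratios between members within a library do not depend on how the library was scaled. Of 5 ratios at 3 doses, 15 tests in all, each was compared with control by an exact two-sided permutation test of the log2 ratio over 924 arrangements, whose smallest possible p is 0.002165. Cpt1a over Cpt2 averaged 2.04 ± 0.14 in controls, 1.57 ± 0.192 with 1 g/L, 1.03 ± 0.14 with 2 g/L and 0.975 ± 0.0551 with 3.5 g/L (SD, n = 6 each). It lay below every control in all 18 dosed libraries (exact p = 0.002165 at each dose, 0.00464 adjusted over the 15 tests), including 1 g/L, where neither gene was called alone. In the 3 libraries at 1 g/L that carry the controls' title tag, the log2 difference was -0.42, against -0.38 with all 6 (exact permutation, p = 0.0119 with 3 libraries, the smallest that 84 arrangements can give, and 0.0595 adjusted over the 5 ratios).
Hadha over Hadhb averaged 1.05 ± 0.071 in controls, 0.955 ± 0.0414 with 1 g/L, 0.815 ± 0.0692 with 2 g/L and 0.804 ± 0.0483 with 3.5 g/L (SD, n = 6 each). Libraries at 2 and 3.5 g/L lay below every control (exact p = 0.002165, adjusted 0.00464), while those at 1 g/L overlapped them (exact p = 0.0238, adjusted 0.0298). Leaving out 1 library raised the adjusted p at 1 g/L to as much as 0.0622 (exact permutation).
Acadl over Acadm and Acadvl over Acadl fell as well at the higher doses. The log2 ratio of Acadl over Acadm differed from control by -0.21, -0.43 and -0.36 at 1, 2 and 3.5 g/L (exact permutation, adjusted p = 0.0207, 0.00721 and 0.00721), with overlap at each dose; in the 3 libraries at 1 g/L with the controls' title tag the difference was -0.25 (exact permutation, adjusted p = 0.119). That of Acadvl over Acadl differed by -0.30 at 2 g/L and -0.48 at 3.5 g/L without overlap (exact permutation, adjusted p = 0.00464 each), and by -0.03 at 1 g/L (exact permutation p = 0.701). Cpt1b over Cpt1a had medians of 0.00726 in controls, 0.00296 with 1 g/L, 0.0281 with 2 g/L and 0.0406 with 3.5 g/L, and only 3.5 g/L passed the threshold against control (exact permutation, adjusted p = 0.0162); control 5 carries the muscle markers given above.

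The order of the members by level, which RPKM allows since it is per length of the gene model, changed with dose. In controls Acadvl was highest at a mean of 74.0 RPKM, followed by Etfdh at 53.2, Cpt1a at 47.8, Acadm at 43.4, Hadha at 41.9, Hadhb at 40.2, Acadl at 30.6, Cpt2 at 23.4, Decr1 at 20.1 and Cpt1b at 0.841. Among Etfdh, Cpt1a, Acadm, Hadha and Hadhb no gene lay above its next lower neighbour in all 6 controls, and the other neighbours were separated in every control. At 3.5 g/L Acadm led at 116.3 RPKM, above Acadvl at 109.9 in 5 of 6 libraries, and Cpt1a had moved to the ninth place at 57.0. Among Decr1 at 64.2, Acadl at 63.5, Cpt2 at 58.8 and Cpt1a at 57.0 RPKM, no gene lay above the next lower of them in all 6 libraries. Hadhb at 92.6 RPKM lay above Etfdh at 92.2 in 4 of 6. Hadha lay above Decr1, and Cpt1a above Cpt1b, in every library.

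Genes around the members were read from lists of the pathway, with their counts called over all genes. Of all genes tested, 41.9% were higher and 10% lower at 2 g/L, and 38.6% were higher and 12.9% lower at 3.5 g/L. With median-ratio library factors 20.8% and 23.0% were higher. Of carnitine genes that were measured, 3 of 3 tested rose at 2 and 3.5 g/L. Crat, carnitine acetyltransferase, averaged 21.5 ± 3.43 RPKM at 3.5 g/L and 3.10 ± 0.864 RPKM in controls (SD, n = 6 each; log2 fold 2.46, limma adjusted p = 5.14e-10), and Bbox1, the last enzyme of carnitine synthesis, had a log2 fold of 0.56 at 3.5 g/L. Of 8 fatty acyl-CoA synthetases tested, which make the substrate of the shuttle, 6 rose at 2 g/L, and at 3.5 g/L 6 rose and 2 fell. Acsl1, the main long-chain form of liver, averaged 450.5 ± 56.2 RPKM at 3.5 g/L and 192.8 ± 27.0 RPKM in controls (SD, n = 6 each; log2 fold 1.22), while the medium-chain form Acsm1 had a log2 fold of -0.33. With median-ratio library factors 4 rose and 1 fell at 2 g/L.
A list of 19 other mitochondrial beta-oxidation enzymes also holds thioesterases and dehydrogenases of amino acid breakdown (Acad8, Acadsb, Ivd and Gcdh). Of these 19, 16 rose and 3 fell at both 2 and 3.5 g/L, with list medians of 0.35 and 0.42. Those that fell were Acadsb, Ivd and Acad10 (log2 fold -0.54, -0.24 and -0.24 at 3.5 g/L). With median-ratio library factors 10 rose at 2 g/L and 15 at 3.5 g/L, and 3 fell. Eci2, an enoyl-CoA isomerase for unsaturated chains that is found in mitochondria and peroxisomes, averaged 88.3 ± 21.4 RPKM at 3.5 g/L and 28.6 ± 3.51 RPKM in controls (SD, n = 6 each; log2 fold 1.57). Acot2, a mitochondrial acyl-CoA thioesterase, averaged 29.4 ± 10.1 and 0.367 ± 0.0606 RPKM in the same groups (log2 fold 4.39); it has close relatives in a gene cluster, so reads may be split between them. The smallest changes were in Acad8 (log2 fold 0.24, and 0.09 with limma adjusted p = 0.213 under those factors), which serves valine breakdown, and Acad10 (-0.24).

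Malonyl-CoA, the inhibitor of carnitine palmitoyltransferase 1, is made by acetyl-CoA carboxylases and used by fatty acid synthase. All 5 genes of this list rose at 2 and 3.5 g/L, against 41.9% and 38.6% of all genes, among them Mlycd, whose product breaks malonyl-CoA down. At 3.5 g/L the log2 fold was 1.42 for Fasn, 1.14 for Acaca and 0.54 for Acacb (limma adjusted p = 0.0349), the carboxylase at the mitochondrial surface, whose call was lost with median-ratio library factors (limma adjusted p = 0.114).
Of 9 transcriptional regulators tested, 4 rose and 2 fell at 2 g/L (1 and 2 with median-ratio library factors), and 6 rose and 2 fell at 3.5 g/L. Of all genes, 41.9% were higher and 10% lower at 2 g/L (20.8% higher with those factors), and 38.6% were higher and 12.9% lower at 3.5 g/L. The count of higher regulators at 2 g/L is thus near the share of all genes. Lpin1, a phosphatidate phosphatase and coactivator of PPAR-alpha, averaged 7.53 ± 1.83 RPKM at 3.5 g/L and 50.4 ± 16.9 RPKM in controls (SD, n = 6 each; log2 fold -2.56), and at 1 g/L, where 0 of 10 members were called, its log2 fold was already -2.52. Creb3l3, a liver transcription factor active in fasting, had a log2 fold of 0.64 at 3.5 g/L. Ppara and the other genes whose symbols sort after Olfr272, including the carnitine carriers Slc25a20 and Slc22a5, were not analysed here.

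Peroxisomal beta-oxidation shortens very long chains before they enter mitochondria. Its 11 genes tested all rose at 2 and 3.5 g/L, with median log2 folds of 1.33 and 1.37, beside 0.75 and 1.10 for the 10 mitochondrial members. Of all genes tested, 41.9% and 38.6% were higher at these doses. Ehhadh, the peroxisomal bifunctional enzyme, averaged 1215 ± 374 RPKM at 3.5 g/L and 30.8 ± 5.01 RPKM in controls (SD, n = 6 each; log2 fold 5.22), past any mitochondrial member. The nuclear genes of complex I, which receive electrons from NADH made in each round, rose in 30 of 33 at 2 g/L and 33 of 33 at 3.5 g/L, with median log2 folds of 0.40 and 0.43. With median-ratio library factors, 11 of 11 peroxisomal genes were still called higher at both doses, and 23 and 27 of 33 complex I genes, against 20.8% and 23.0% of all genes. At 1 g/L 11 of these 33 were called higher, and 0 of 10 members and 0 of 11 peroxisomal genes, against 8.35% of all genes. The complex I count at 1 g/L depended on the setting. It was 10 of 33 with quantile normalization, against 5.26% of all genes, and 4 of 33 with median-ratio library factors, against 3.61%. Without controls 5 and 6 and 1 g/L library 52 it was 1 of 33, against 130 of 6540 genes. No test of the differences between lists was made.

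**Figure D5:**
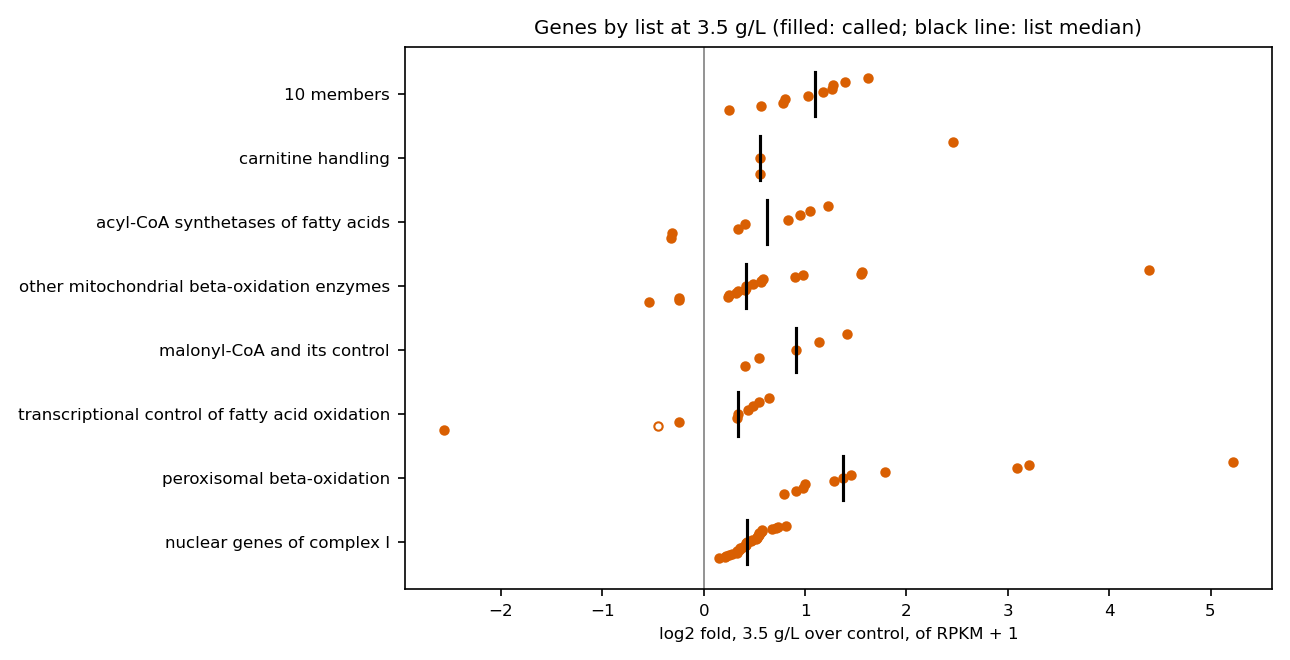
Log2 fold at 3.5 g/L over control of RPKM + 1 (horizontal axis) for each tested gene of the 10 members and of the related lists (rows); filled points have an adjusted p under 0.05 and the black line is the list median. The members run from 0.25 to 1.62 with a median of 1.10, between the peroxisomal genes (median 1.37) and the complex I genes (median 0.43).

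The genes whose pattern was most like the members' were found by the root mean square difference, over 24 libraries, between a gene's log2 difference from its control mean and the members' median of the same quantity. Among tested genes that are no members, the closest were Acad11, an acyl-CoA dehydrogenase relative (0.084), Chdh, choline dehydrogenase (0.115), Cdc34, a ubiquitin-conjugating enzyme (0.116), Creg1, a secreted glycoprotein (0.124) and Cops6, a subunit of the COP9 signalosome (0.127). Acad11 averaged 108.7 RPKM at 3.5 g/L and 54.0 RPKM in controls. The closest member, Acadl, stood at 0.146 and ranked 11 among tested genes, and Cpt1a was the farthest member at 0.574.

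Properties of the libraries touch all of these values. The steps between low RPKM values put depth at roughly 23200000 to 27500000 reads in each library, and pairs of libraries of one dose correlated across genes at r = 0.983 to 0.997 (60 pairs). This depth range shows differences between libraries only. Its absolute level is less certain, as estimates from single genes had quartiles of 17800000 and 28200000 reads. Each title holds a tag whose meaning is not stated. It reads L1 in every control, L1 in 3 and L2 in the other 3 libraries at 1 g/L, L2 throughout 2 g/L and L3 throughout 3.5 g/L, so at the highest dose tag and dose cannot be told apart. With the tag as a term, 8 of 10 members were still called higher at 2 g/L, against 9.54% of genes, with the highest adjusted p among them at 0.0239 (Acadl, limma). With median-ratio library factors the median log2 fold of all genes at 2 g/L was -0.01, against 0.12 as deposited. With these factors 8 members were still called higher at 2 g/L, against 20.8% of genes, and 9 members at 3.5 g/L, against 23.0% of genes.
Liver identity was plain, with hepatocyte markers summing to at least 16440 RPKM in every library. That sum had a median of 19040 RPKM at 2 g/L and 19810 at 3.5 g/L, against 28000 in controls, and 5 of its 7 genes were lower at both doses (limma). Of all genes, 10% were lower at 2 g/L and 12.9% at 3.5 g/L. Kupffer cell markers had a median sum of 55.1 RPKM at 3.5 g/L against 74.9 in controls, with 6 of 7 genes lower there and 0 of 7 called at 2 g/L. Erythroid markers had a median sum of 259 RPKM at 3.5 g/L against 543 in controls, with 3 of 4 tested lower. At 3.5 g/L 0 of 6 sinusoidal endothelial markers were called, and of 6 stellate cell markers 1 was higher and 0 lower. Of 2 cholangiocyte markers tested, 1 was lower. The sum of the 4 cholangiocyte markers listed was 9.616 to 12.38 RPKM at 3.5 g/L (median 11.32), against 13.75 to 17.07 RPKM in controls (median 14.77). The part of these shifts in the members' differences was not tested.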

How the data were processed

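RNA was sequenced from 24 frozen liver samples, 6 per dose, after removal of ribosomal RNA with a strand-keeping kit, per the labels' protocols. The authors deposited 1 table of RPKM per gene and library; CASAVA, STAR 2.4, Partek and build mm10 appear, with no role or order, in the submitters' processing notes. Annotation and any use of strand are not given in the sources used here. A zero is written as 1e-04 RPKM. The table ends inside the line of Olfr272; that line and 13 lines whose symbols had become dates were dropped.

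The 10 members, the gene lists and the tests were chosen with earlier results of these data known. The 6540 genes that reached 0.5 RPKM in 6 libraries or more were fitted as log2(RPKM + 1) with limma 3.58.1 in R 4.3.3, 1 mean per dose, with a variance trend; a log2 fold on this scale understates the change of low genes. All tests are two-sided. Nothing in the labels ties each library to a separate mouse; the p-values thus cover the spread among samples, which may be technical. Beside all members, genes of the related lists were named mostly from the 2 called genes with the largest and the 2 with the smallest absolute log2 fold at 3.5 g/L. Not all of these are named, and no complex I gene is. Mlycd, Acadsb, Ivd and Gcdh are named outside this rule. The 5 genes most like the members and some markers are named as well. Alternatives were library factors, quantile normalization, other filters and pseudocounts, an exact test, the title tag and each library left out; 1 more, without 3 libraries, was added after seeing the data. Results of 1 related list are not reported here. Coordinates are from GENCODE on GRCm38. The fit and the exact test were tested on simulated data.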

Additional observations from a re-analysis of the deposited data

Results flagged for a closer look

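Of 40 groups of 6 values (10 members at 4 doses), 2 held a value far from the rest, where a gap of more than 0.625 of the group's range counts as far; chance flags about 1 group in 20. Both were Cpt1b. Control 5 stood at 3.67 RPKM with the next control at 0.410, a gap of 0.925 of the range. Library 52 at 1 g/L stood at 1.46 RPKM with the next library of its dose at 0.315, a gap of 0.784 of the range. The first is the library with the highest muscle marker sum of the 24 and the second that with the highest adipocyte marker sum; the part of these tissues in the Cpt1b values was not tested.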

How the results depend on the processing

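The 8 members other than Cpt1a and Cpt1b kept their direction and call at 2 and 3.5 g/L in 520 of 520 recomputed values. Depth limits Cpt1b most: some of its values lie below 1 read. No paired analysis was possible because replicate numbers are not shared between doses. Over all member folds, 1548 of 1600 recomputed values kept direction and side of the threshold. The cause of the other changes was not tested. Both counts include settings in which the fold cannot move and only its p-value can, such as fits without a library of a dose outside the comparison. Directions turned, none of them called, for Acadl at 1 g/L without library 49 (range over left-out libraries -0.0845 to 0.0225), for Cpt1a at 2 g/L (-0.0625 with median-ratio factors, -0.0659 with quantile normalization, -0.0874 with the tag as a term), for Hadha at 1 g/L (-0.0178 with median-ratio factors) and for Acadvl over Acadl at 1 g/L (0.0526 in L1 only, and -0.0683 to 0.0114 over left-out libraries).

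Members higher at 1 g/L were 1 (Decr1) when only the compared groups were fitted and with a pseudocount of 0.1, and 0 to 1 over left-out libraries (1 without library 49, 75, 78 or 98). At 3.5 against 2 g/L they were 0 without a filter, 2 with quantile normalization and 0 to 1 over left-out libraries. Among log2 ratios at 1 g/L, L1 only gave no call, with -0.42 for Cpt1a over Cpt2, -0.0779 for Hadha over Hadhb and -0.25 for Acadl over Acadm. With 3 against 6 libraries the smallest exact p is 0.0119, or 0.0595 adjusted where 1 of the 5 ratios reaches it. Cpt1a over Cpt2 stood at that smallest value, so its lost call says nothing of stability. Hadha over Hadhb did not reach it (exact permutation, adjusted p = 0.268), and its difference was smaller than the -0.131 with all 6 libraries at 1 g/L. Acadl over Acadm did not reach it either (exact permutation, adjusted p = 0.119), with -0.21 for all 6. The call of Acadl over Acadm was also lost without controls 5 and 6 and library 52 (-0.22); Hadha over Hadhb ran from -0.15 to -0.10 over left-out libraries. Cpt1b over Cpt1a ran from -4.18 to -2.20 at 1 g/L and 1.36 to 2.32 at 2 g/L over left-out libraries, called without library 52, library 78 or control 5, and was 2.46, called, without controls 5 and 6 and library 52. A pseudocount of 1 moved this ratio to -0.14, 0.65 and 1.02 at 1, 2 and 3.5 g/L, against -3.14, 1.67 and 2.53 without one, with only 3.5 g/L called either way; 3 of its values at 1 g/L rest on less than 1 read.

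Counts over all genes moved more. Genes higher at 1, 2 and 3.5 g/L were 546, 2738 and 2525, and genes lower 198, 657 and 843. With median-ratio factors they were 236, 1363 and 1503 higher and 355, 1407 and 1569 lower, so that the share of calls that were higher at 2 g/L was 49.2% and not 80.7%. With quantile normalization they were 344, 1363 and 1429 higher and 312, 1311 and 1445 lower. At 1 g/L the exact test gave 197 higher and 105 lower, L1 only 12 and 38, the tag as a term 38 and 54, and the fit without controls 5 and 6 and library 52 gave 130 and 85; no filter gave 343 higher, and left-out libraries 305 to 777 higher. At 2 g/L the tag as a term gave 624 higher and 240 lower.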

Other observations

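Chkb, a choline kinase gene 496 bases upstream of Cpt1b on the same strand of chromosome 15 (chr15:89426360-89429908), was looked at after the Cpt1b values were seen. It averaged 7.66 ± 1.52 RPKM at 2 g/L and 9.68 ± 2.03 RPKM at 3.5 g/L, against 4.20 ± 0.57 RPKM in controls (SD, n = 6 each). Its log2 fold was 0.72 at 2 g/L (limma adjusted p = 3.05e-05) and 1.02 at 3.5 g/L (limma adjusted p = 1.93e-07), and all 12 libraries of these doses lay above every control. In control 5, where Cpt1b was at 3.67 RPKM, Chkb was the lowest of the controls. Gm44502, the readthrough gene that covers most exons of Cpt1b, also shares 1552 exonic bases with Chkb.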
